A study of Mus musculus with 2 samples.

Results

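Germline and meiosis genes encode proteins used by germ cells to keep their identity, to silence transposons and to pair and recombine chromosomes. The 42 genes described here were chosen by name from the 21938 protein-coding genes of GENCODE vM21 and by no measured value. Earlier results of these data were known when they were chosen. Their promoters, defined as the window reaching 1 kb up- and downstream of the transcription start site (TSS), and their gene bodies, taken as the gene record without the promoter, were compared with those of all other protein-coding genes. The TSS was that of the principal transcript. It can lie inside the gene record, so a promoter here is not always at the 5′ end of the gene. Genomic DNA of E14, a male line of mouse embryonic stem cells (mESCs) grown in serum/LIF, was taken at 2 passages and gave 2 libraries, replicate 1 and replicate 2. The labels and the study's methods give different shares of FBS in the medium. No other treatment, genotype or time point was measured, and thus no test between samples was possible. The cells were not sorted, and transcripts were not measured here, so a level describes the whole culture.

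In SCoTCH-seq the strands of a fragment are kept together through sequencing, which calls cytosine (C), 5-methylcytosine (M) or 5-hydroxymethylcytosine (H) on each strand of a CpG site. CC is unmodified on both strands, MM is symmetric methylation, and MC/CM is hemimethylation. HC/CH carries 5-hydroxymethylcytosine (hmC) opposite C, HM/MH carries it opposite 5-methylcytosine, and HH carries it on both strands. A level is the percentage of all calls in a promoter or body that fall in a CpG state.

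In somatic tissues many germline genes are silent and carry DNA methylation at their CpG-rich promoters, unlike most CpG-rich promoters. DNMT3 enzymes write this methylation in the early embryo. In mESCs a Polycomb complex that contains E2F6, MGA and MAX binds E-box and E2F motifs at many of these promoters and recruits repressors. TET enzymes oxidise 5-methylcytosine to hmC. These are background facts and were not measured here.

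Of the 42 promoters, 24 were CpG-dense, with at least 3 CpG sites per 100 bp, 13 were intermediate and 5 were sparse, with under 1.5. Among the other protein-coding genes 51.4% of promoters were dense, against 57.1% of the members. As examples, the 250 bases before the TSS of 7 dense or intermediate members are given 5′ to 3′ on the strand of the gene. They are from GRCm38.p6, with each CpG in capitals. Hormad1 and Slc25a31 hold the sequence motifs described further on, Figla, Hormad2 and Tex101 were among the more modified promoters, and Rec8 and Hsf2bp were among the less modified.
Hormad1: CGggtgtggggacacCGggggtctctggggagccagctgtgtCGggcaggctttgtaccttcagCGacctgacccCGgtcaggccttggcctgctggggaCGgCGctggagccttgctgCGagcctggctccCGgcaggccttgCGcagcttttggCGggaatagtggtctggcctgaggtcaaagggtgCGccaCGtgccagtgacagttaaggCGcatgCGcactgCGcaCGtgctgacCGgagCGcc
Slc25a31: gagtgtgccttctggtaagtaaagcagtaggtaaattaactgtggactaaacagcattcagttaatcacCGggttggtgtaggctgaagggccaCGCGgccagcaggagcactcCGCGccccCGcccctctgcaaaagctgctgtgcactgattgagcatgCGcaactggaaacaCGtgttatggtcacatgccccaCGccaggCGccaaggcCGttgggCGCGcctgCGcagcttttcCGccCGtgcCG
Figla: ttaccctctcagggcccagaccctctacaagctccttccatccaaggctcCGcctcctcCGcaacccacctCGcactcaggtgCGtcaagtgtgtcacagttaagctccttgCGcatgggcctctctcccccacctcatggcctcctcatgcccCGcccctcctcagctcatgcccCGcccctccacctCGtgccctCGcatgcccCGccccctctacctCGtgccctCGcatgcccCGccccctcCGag
Hormad2: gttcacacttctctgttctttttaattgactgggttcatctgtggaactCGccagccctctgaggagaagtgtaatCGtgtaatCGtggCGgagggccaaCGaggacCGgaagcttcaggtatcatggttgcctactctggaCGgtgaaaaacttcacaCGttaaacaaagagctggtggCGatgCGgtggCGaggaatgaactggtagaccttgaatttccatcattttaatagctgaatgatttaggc
Tex101: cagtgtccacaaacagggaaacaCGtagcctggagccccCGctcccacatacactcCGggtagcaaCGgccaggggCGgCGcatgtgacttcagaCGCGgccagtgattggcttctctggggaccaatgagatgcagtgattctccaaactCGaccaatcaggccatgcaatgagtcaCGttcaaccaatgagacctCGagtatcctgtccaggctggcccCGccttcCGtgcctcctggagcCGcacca
Rec8: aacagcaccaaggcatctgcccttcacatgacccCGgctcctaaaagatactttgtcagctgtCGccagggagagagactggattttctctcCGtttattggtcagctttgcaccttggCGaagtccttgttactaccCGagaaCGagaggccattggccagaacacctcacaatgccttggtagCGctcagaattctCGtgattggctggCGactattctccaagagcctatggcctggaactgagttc
Hsf2bp: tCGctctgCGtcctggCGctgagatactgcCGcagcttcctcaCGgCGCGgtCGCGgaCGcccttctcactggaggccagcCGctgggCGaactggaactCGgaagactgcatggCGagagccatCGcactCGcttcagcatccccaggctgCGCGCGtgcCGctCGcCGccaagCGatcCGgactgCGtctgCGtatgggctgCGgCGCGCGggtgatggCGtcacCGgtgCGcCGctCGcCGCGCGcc
These lie at chr3:95559427-95559676 (plus strand), chr3:40708605-40708854 (plus), chr6:86016941-86017190 (plus), chr11:4440746-4440995 (minus), chr7:24672051-24672300 (minus), chr14:55617787-55618036 (plus) and chr17:32036350-32036599 (minus), respectively. The stretch of Hsf2bp holds 38 CpG sites, and that of Rec8 holds 9. In replicate 1, all 90 calls at 15 sites of the Hsf2bp stretch were CC. All 50 calls at 9 sites were CC in replicate 2. In the Rec8 stretch, 89.0% of 146 calls at 9 sites were CC in replicate 1, and 83.3% of 36 calls at 6 sites in replicate 2. In contrast, CC made up 17.8% of 101 calls at all 11 sites of the Hormad2 stretch in replicate 1, with 50.5% MM, 10.9% HC/CH and 14.9% HM/MH. Replicate 2 covered 3 of these 11 sites with 16 calls, of which 50.0% were CC. The Tex101 stretch had 59.1% MM in 93 calls at 10 sites of replicate 1. At the Figla stretch, 40.9% of the 22 calls at 3 of its 14 sites were HC/CH in replicate 1, and no site was covered in replicate 2.

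Replicate 1 held 13676795 CpG sites with 143497239 calls, and replicate 2 held 4918612 sites with 31306245 calls. Their mean depths were 10.5 and 6.36 calls per site. Each deposited site had at least 5 calls. Of the 2878 CpG sites of the members' promoters in the reference, replicate 1 covered 48.2% with 12125 calls and replicate 2 covered 15.9% with 2834 calls. A promoter or body was measured where at least 5 CpG sites were covered. All 42 member promoters were measured in replicate 1 and 33 in both replicates, against 15061 of all protein-coding promoters. Those of Dazl, Ddx4, Nanos2, Nanos3, Mael, Piwil4, Tdrd9, Tex15 and Brdt were measured in replicate 1 alone. The bodies of 39 members were measured in both. Among the 33 promoters, calls numbered 173 to 526 in replicate 1 (median 312) and 25 to 215 in replicate 2 (median 75), so the levels of replicate 2 are coarse.

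The members' promoters carried less CC and more MM, MC/CM, HC/CH and HM/MH than other promoters, by their medians. The median CC level of the 33 was 50.2% in replicate 1 and 56.4% in replicate 2, against 87.8% and 85.4% at 15028 other promoters. Median MM was 27.4% and 30.9% against 6.67% and 7.69%. Median MC/CM was 6.48% and 5.88% against 2.40% and 3.03%. For HC/CH the medians were 4.69% and 4.0% against 1.82% and 1.71%, and for HM/MH 4.05% and 2.82% against 0.816% and 0%. As mean ± SD of the replicates' medians (n = 2), the members' CC was 53.3% ± 4.37 and that of other promoters 86.6% ± 1.67. Median HH was 0.380% and 0% at members and 0% in both replicates at the others. For each of the 5 states other than HH, the members' medians lay on the same side of the others in both replicates. With promoters of 500 bp either side of the TSS the members' median MM was 14.5% and with at least 10 covered sites per promoter 19.08%, as means of the replicates. Medians of other promoters under these settings are not given, so a change in the gap cannot be read from these values. No test over the list was made.

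**Figure D1:**
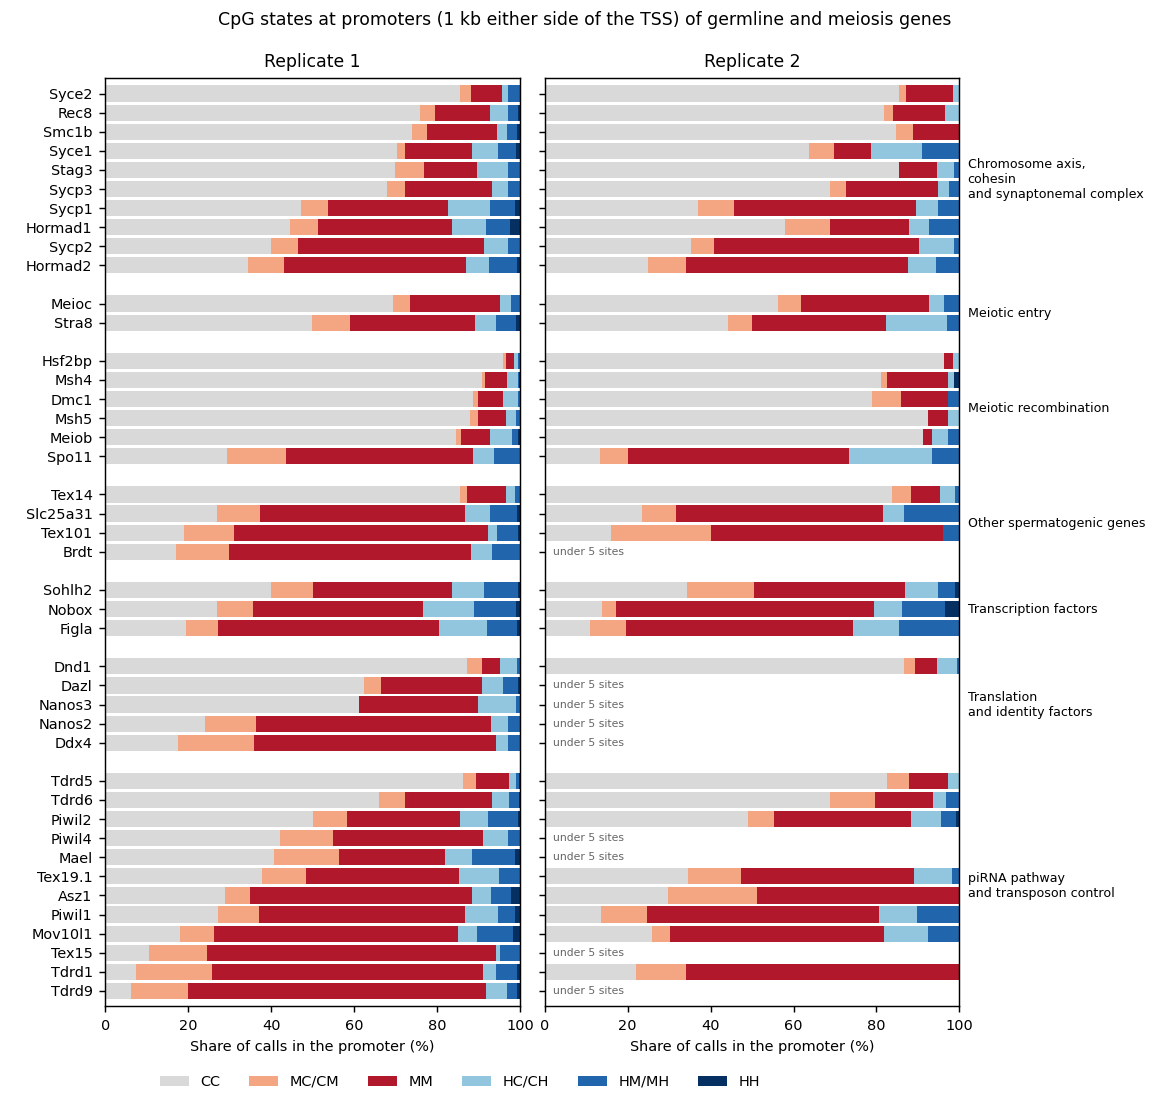
CpG states at the promoters of the 42 genes, as stacked shares of calls (percent, x axis), by gene and role group (y axis), in replicate 1 (left) and replicate 2 (right). CC ran from 6.25% at Tdrd9 to 95.8% at Hsf2bp in replicate 1, and promoters with fewer than 5 covered sites in a replicate are left blank.

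The gap in the medians was also seen within the dense and the intermediate class of CpG density. Among CpG-dense promoters the median CC level was 72.0% and 80% at 20 members, against 93.2% and 92.2% at 9815 others. Median MM was 14.8% and 12.7% against 3.37% and 3.53%. Among promoters of intermediate density, median CC was 36.1% and 32.2% at 12 members, against 69.3% and 63.8% at 2953 others. Of the 33 members, 17 had under 60% CC in both replicates, against a background of 22.0% of all promoters measured. In the dense class these were 6 of 20, where 1.89% of all dense promoters met the rule: Figla, Mov10l1, Slc25a31, Sohlh2, Sycp1 and Sycp2. In the intermediate class 10 of 12 met it, all but Rec8 and Syce1, against a background of 37.0%. In the sparse class only Tdrd1 was measured in both replicates, and it had 7.39% and 22.0% CC against medians of 18.3% and 13.3% at 2260 others, with no one direction. The limit of 60% was set after the data had been seen. With 500 bp either side of the TSS in place of 1 kb, 6 of 24 members (25.0%) lay under it, against 12.4% of all promoters, and 3 of 17 dense members did, against 0.624% of all dense promoters. With at least 10 covered sites the count was 11 of 26 (42.3%, background 10.3%).

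**Figure D2:**
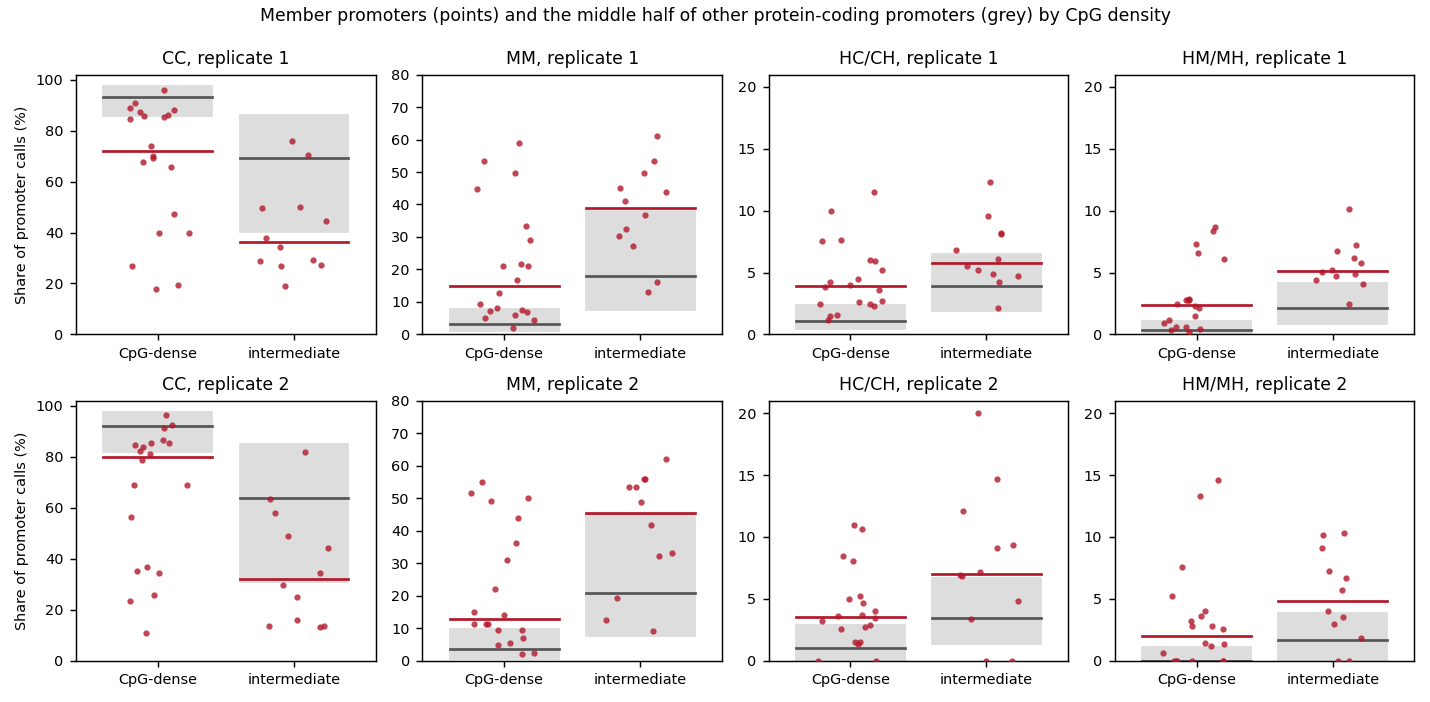
Levels of CC, MM, HC/CH and HM/MH (percent of promoter calls, y axis) for CpG-dense and intermediate promoters (x axis) in replicate 1 (top) and replicate 2 (bottom). Red points are the 20 dense and 12 intermediate members with their median as a red line, and grey boxes and lines are the interquartile range and median of other promoters. In the dense class the members' median CC lay at 72.0% and 80%, below the grey boxes.

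The members did not form a single class. Levels of CC spread from 7.39% to 95.8% among the 33 promoters in replicate 1 and from 10.98% to 96.3% in replicate 2. Both single CpG sites and whole promoters were mixed. At sites of the members' promoters with at least 10 calls in replicate 1, 33.0% of 433 sites had 80% CC or more, 33.5% had 20% or less and 33.5% lay between. At the other genes these shares were 65.3%, 15.8% and 18.9% of 227108 sites. Within the dense class, 26.7% of 243 member sites had 20% CC or less, against 3.77% of 153753 other sites. Neighbouring sites share DNA fragments and are not independent.

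Around the TSS, CpG-dense promoters of other genes were almost free of modification, and dense members were less so. In the 200 bp just downstream of the TSS, dense members had 83.2% CC in replicate 1 (1159 calls) and 87.8% in replicate 2 (320 calls), against 98.8% and 98.2% at other dense promoters. In the 200 bp just upstream it was 83.8% and 95.2%, against 98.2% and 97.6%. The members' upstream values rest on 681 calls at 17 genes in replicate 1 and 229 calls at 9 genes in replicate 2. The gap in CC was wider in the bins centred 500 bp from the TSS. In the bin centred 500 bp downstream, CC was 65.0% and 72.9% at members and 96.3% and 95.1% at the others. In the bin centred 500 bp upstream it was 47.1% and 57.0%, from 548 calls at 19 genes and 114 calls at 11 genes, against 86.9% and 84.6%. MM in the downstream bin was 20.8% and 13.4% against 1.78% and 2.29%. HC/CH there was 6.19% and 5.28% against 0.797% and 0.994%. In the bin centred 3900 bp upstream, CC was 24.3% and 42.1% at members against 33.0% and 29.3%, with no one direction. Calls were pooled over genes, so a gene with more covered sites weighs more.

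**Figure D3:**
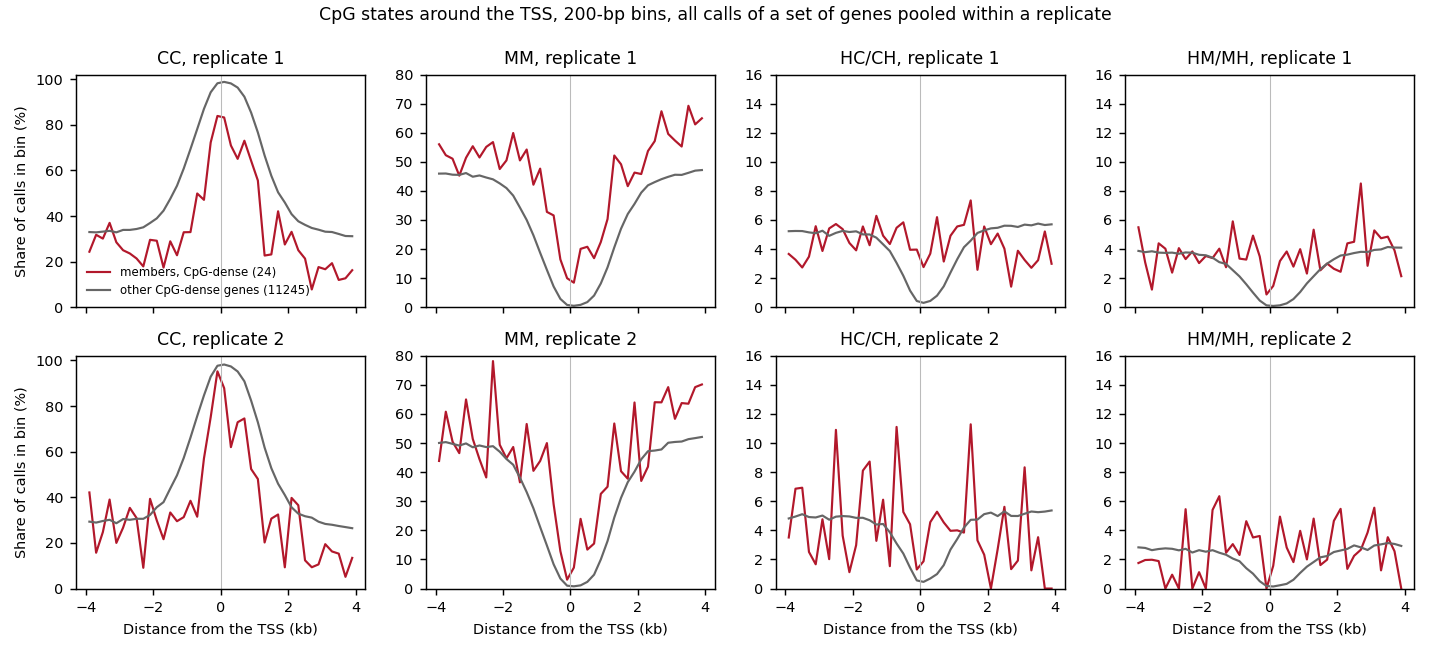
Levels of CC, MM, HC/CH and HM/MH (percent of calls in bins of 200 bp, y axis) by distance from the TSS (kb, x axis) for CpG-dense members (24 genes, red) and other CpG-dense genes (11245 genes, grey), in replicate 1 (top) and replicate 2 (bottom), with calls pooled over genes. Not every gene has covered sites in each bin. CC of the members was 83.2% and 87.8% just downstream of the TSS and 83.8% and 95.2% just upstream, below the grey line. The members' line in replicate 2 is uneven, and few calls stand behind each bin.

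The role groups below were not matched for CpG density, and the part of density in their levels was not tested. The translation and identity factors ranged widely. Dazl, an RNA-binding protein that licenses germ cells, and Ddx4, an RNA helicase of germ granules, were measured at the promoter in replicate 1 alone, with 62.4% and 17.5% CC. MM at these promoters was 24.3% and 58.3%. Nanos2 and Nanos3, translational repressors of germ cells, had 24% and 61.2% CC in that replicate. Dnd1, an RNA-binding partner of the Nanos proteins, was among the least methylated members, with 87.3% and 86.7% CC and 4.43% and 5.33% MM in replicates 1 and 2. HC/CH at Dnd1 was 4.23% and 4.67%, close to its MM level in both replicates.

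The 10 genes of the chromosome axis, cohesin and synaptonemal complex, which hold meiotic chromosomes together, had median CC levels of 68.9% and 66.2%. They split between 4 promoters under 60% CC in both replicates, against a background of 22.0%, and 6 promoters above it in both. Hormad2, a HORMA-domain protein of the unsynapsed axis, had 34.4% and 25.0% CC with 44.0% and 53.4% MM. Sycp2, a lateral element protein, had 40% and 35.2% CC, and Sycp1, which spans the central region, had 47.1% and 36.8%. Hormad1 had 44.5% and 57.8%. On the other side, Syce2 of the central element had 85.5% CC in both replicates, and the meiotic cohesin subunits Rec8, Stag3 and Smc1b had 75.8%, 69.9% and 74.1% in replicate 1 and 81.8%, 85.3% and 84.7% in replicate 2. Sycp3 had 67.8% and 68.8%, and Syce1 had 70.4% and 63.6%.

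The meiotic recombination genes were mostly unmodified at the promoter, with median CC of 88.3% and 86.1% over 6 genes. The medians were 87.8% and 85.4% at all other promoters. All but the intermediate Spo11 are CpG-dense, a class with median CC of 93.2% and 92.2% at other genes. Hsf2bp, which brings recombinases to breaks through BRCA2, had 95.8% and 96.3% CC with 1.90% and 2.22% MM, the lowest MM of the 33 members. Msh5 and Msh4, which form a heterodimer at crossovers, had 87.9% and 92.4%, and 90.7% and 81.1% CC. MM was 6.81% and 4.76% at Msh5 and 7.11% and 2.33% at Meiob, a single-strand DNA-binding protein. CC at Meiob was 84.5% and 91.2%, and at the recombinase Dmc1 88.8% and 78.9%. Spo11, which makes the meiotic breaks, stood apart from the other 5 with 29.4% and 13.3% CC and 45.0% and 53.3% MM, the second value from 30 calls.

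The piRNA pathway and transposon control genes, whose products make and use small RNAs against transposons, included many modified promoters. Of the 8 measured in both replicates, 6 had under 60% CC in both, against a background of 22.0%, and the medians were 33.4% and 32.2%. Of these 6, Mov10l1 is CpG-dense, Tdrd1 sparse and the rest intermediate. Among other dense, sparse and intermediate promoters, 1.8%, 89.7% and 36.8% lay under 60%. Tdrd1, a Tudor-domain scaffold of germ granules, had a sparse promoter at the TSS of its principal transcript. It had the highest MM of the 33 members by the lower of the replicates, with 65.4% and 65.9%. Mov10l1, an RNA helicase that starts piRNA processing, had 58.8% and 51.5% MM, and Piwil1, a PIWI protein that binds piRNAs, had 49.7% and 55.9%. Asz1, a germ granule protein at mitochondria, had 53.4% and 48.9% MM, and Piwil2 and Tex19.1 had 27.4% and 33.0%, and 36.9% and 41.8%. The remaining 2, Tdrd5 and Tdrd6, had 86.2% and 82.4%, and 65.9% and 68.8% CC. Measured in replicate 1 alone, Tdrd9, Tex15, Mael and Piwil4 had 6.25%, 10.7%, 40.6% and 42.2% CC.

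The 3 transcription factors were all modified and 2 of them, Nobox and Figla, had the highest HC/CH levels of the 33 members in replicate 1. Figla, a regulator of oocyte genes, had 53.3% and 54.9% MM, Nobox, an oocyte homeobox factor, had 41.0% and 62.1%, and Sohlh2, a helix-loop-helix factor of germ cells, had 33.5% and 36.4%. Of the 2 meiotic entry genes, Stra8, a retinoic acid-induced gatekeeper of meiosis, had 49.8% and 44.1% CC, and Meioc, which stabilises meiotic transcripts, had 69.4% and 56.4%. Among the other spermatogenic genes, Tex101, a surface protein of germ cells, had 61.2% and 56.0% MM and Slc25a31, a germline ADP/ATP carrier, had 49.6% and 50.0%. Tex14, a protein of germ cell bridges, had 9.25% and 6.98%. Brdt, a testis bromodomain protein, had 58.5% MM in replicate 1 alone.

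HC/CH, the form in which hmC faces an unmodified cytosine, was highest at Figla when members were ranked by the lower of the replicates, with 11.5% (95% confidence interval 7.89% to 16%) and 10.98% (5.14% to 19.8%) in replicates 1 and 2. The intervals are exact binomial ones and cover counting error only. Tex19.1 followed with 9.60% and 9.09%, Piwil1 with 8.09% and 9.32%, and Sohlh2 with 7.64% and 8.08%. These 4 of 33 members lay in the highest 10% of all promoters in both replicates, at or above 6.62% and 7.69%, against a background of 4.15%. For each alternative the limits of the highest 10% were set anew among the promoters kept, so its counts are not taken at these levels. The count was 7 of 26 (26.9%, background 5.02%) with at least 10 covered sites per promoter, and 2 of 29 (6.90%, background 4.20%) with sites deposited for both replicates. Next in order were Nobox with 12.3% and 6.90%, Piwil2 with 6.84% and 7.14%, Syce1 with 6.06% and 12.1%, Sycp2 with 5.92% and 8.45%, Hormad2 with 5.53% and 6.82%, and Sycp1 with 9.96% and 5.26%. Neighbours in this order did not differ beyond their intervals. At Spo11, with 30 calls in replicate 2, the replicates gave 5.21% and 20%. The lowest levels, ranked by the higher of the replicates, were at Hsf2bp with 1.14% and 1.48%, Syce2 with 1.504% and 1.53%, Tex101 with 2.16% and 0%, Smc1b with 2.50% and 0%, and Tdrd5 with 1.603% and 2.70%. For Tex101, the 0 of 25 calls in replicate 2 allow a level of up to 13.7%.

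In most genes HC/CH was lower in the promoter than in the body, whereas members were found on both sides. Each gene's promoter was tested against its own body with Fisher's exact test (two-sided) in each replicate, with Benjamini-Hochberg adjustment over all genes, and was called where the adjusted p was under 0.05 in both replicates. CpG sites on 1 fragment are counted as independent calls, so these p-values are too small. HC/CH was called higher in the promoter at 0 of 31 members tested (background 0.609%) and lower at 0 of 31 (background 8.21%). Without adjustment 0 members passed in either direction, where 212 of 14124 genes passed as higher and 2821 as lower. The promoter was above the body in both replicates at 16 members and below it in both at 11, where 12.9% and 65.9% of all genes lay on these sides. With the calls of both replicates summed, an alternative chosen after the data had been seen and weighted towards replicate 1, 11 of 41 members were called higher (background 5.71%) and 5 lower (background 45.6%). The 11 were Dazl, Figla, Hormad1, Mov10l1, Nobox, Piwil1, Slc25a31, Sohlh2, Stag3, Sycp1 and Sycp2. At Sycp1 HC/CH was 9.12% in the promoter and 2.56% in the body in the summed calls (adjusted p = 4.8e-07, Fisher's exact test), with 9.96% against 2.55% in replicate 1 and 5.26% against 2.59% in replicate 2. At Sohlh2 the summed levels were 7.75% and 3.56% (adjusted p = 0.0018, Fisher's exact test) and at Sycp2 6.34% and 2.92% (adjusted p = 0.0021, Fisher's exact test). Dazl had 5.20% against 1.36% (adjusted p = 0.011, Fisher's exact test), with no promoter call from replicate 2. The 5 lower ones were Hsf2bp, Msh5, Rec8, Syce2 and Tdrd5, and Hsf2bp had 1.21% in the promoter and 4.91% in the body (adjusted p = 4.7e-06, Fisher's exact test).

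**Figure D4:**
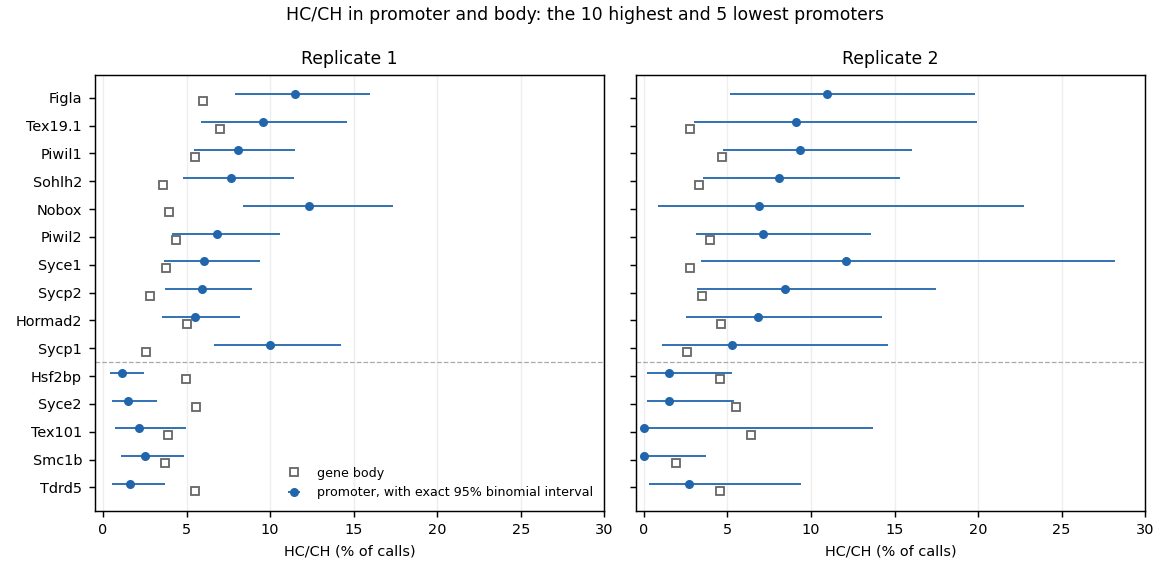
HC/CH level (percent of calls, x axis) of the 10 members with the highest and the 5 with the lowest promoter level (y axis, parted by the dashed line), in replicate 1 (left) and replicate 2 (right). Blue points are promoters with exact 95% binomial intervals and open squares are bodies with at least 5 covered sites, which leaves out the bodies of Figla and Nobox in replicate 2. At Sycp1 the promoter point lies at 9.96% and 5.26%, to the right of the body square at 2.55% and 2.59%.

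HM/MH, hmC facing 5-methylcytosine, also had higher medians at the members' promoters than at other promoters. In the highest 10% of all promoters in both replicates, at or above 4.72% and 4.55%, lay 8 of 33 members against a background of 3.82%. They were Figla, Hormad1, Hormad2, Mov10l1, Nobox, Slc25a31, Spo11 and Sycp1. This count was chosen after the data had been seen. It was not recomputed with corrected levels or under the other alternatives. Nobox had 10.1% and 10.3%, Mov10l1 8.65% and 7.58%, Figla 7.28% and 14.6%, and Slc25a31 6.61% and 13.3%. The 33 promoters had 25 to 215 calls each in replicate 2, so these levels are coarse there and their order is not firm. In replicate 1, 4.51% of MM calls on synthetic duplexes were read as HM/MH, against 0.467% in replicate 2. With levels corrected by each replicate's own call rates, Nobox had 8.48% and 10.5%, Mov10l1 6.07% and 7.22%, and Figla 4.83% and 14.6%. The corrected median of the members was 2.15% and 2.75%, and that of other promoters 0.468% and 0%.

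Neither form of asymmetric hmC was called above the other in both replicates at any promoter tested, so this rule cannot set members apart. By an exact binomial test (two-sided, adjusted over all promoters), HC/CH was called above HM/MH at 0 of 30 members (background 0.0%) and below it at 0 of 30 (background 0.0%). Without adjustment 0 members passed in either direction in both replicates, where 118 of 11035 promoters passed with more HC/CH and 0 with more HM/MH. HC/CH was the higher of the forms in both replicates at 12 of 30 members and the lower in both at 2, where 54.1% and 4.31% of all promoters tested lay on these sides. These counts use uncorrected calls, and in replicate 1 4.51% of MM calls on synthetic duplexes were read as HM/MH. The part of such misread calls in the members' share was not tested. With corrected levels, the median HC/CH of the 33 members was 4.4% and 4.11%, and their median HM/MH 2.15% and 2.75%. In the summed calls, Dnd1 was the 1 member of 42 called with more HC/CH (background 2.36%), and 0 were called with more HM/MH (background 0.0536%). Dnd1 had 4.23% HC/CH and 0.604% HM/MH in replicate 1, and 4.67% and 0.667% in replicate 2.

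Members were also set beside other promoters in the same range of CC level. Promoters were grouped by the mean CC of the replicates. Between 20% and 40% CC lay 10 members, with median MM of 44.9% and 50.8% against 46.1% and 50.8% at 914 other promoters. Their median HC/CH was 5.96% and 8.27% against 6.43% and 5.71%, and their HM/MH 6.38% and 6.17% against 4.497% and 3.15%. Between 60% and 80% CC, 7 members had 16.9% and 12.5% MM against 13.8% and 17.8%, and 3.97% and 3.41% HC/CH against 3.38% and 3.85%, with no one direction in the replicates. Below 20% CC, 3 members had 3.11% and 0% HC/CH against 4.29% and 3.23%. Between 40% and 60%, 4 members had 7.54% and 6.20% HC/CH against 5.80% and 6.31%. At 80% CC or more, 9 members had 6.81% and 6.98% MM against 2.68% and 2.56% at 9064 others, and 2.48% and 2.70% HC/CH against 0.911% and 0.746%. Only 6 of 9815 other dense promoters had under 20% CC and 55 had 20% to 40%. These groups are set by CC itself and are not matched for CC within a group, and no test was made. By replicate 1 alone, over all 15028 other promoters, 2495 had 90% to 95% CC and 4211 had 95% or more. The part of such differences in CC in the levels of MM and HC/CH was not tested.

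MC/CM reached 18.3% at Tdrd1 in replicate 1 and 24% at Tex101 in replicate 2. In the highest 10% in both replicates, at or above 12.2% and 14.5%, were 0 of 33 members against a background of 5.42%. This count turned with at least 10 covered sites per promoter and the limits set anew among the promoters kept. There 3 of 26 members (11.5%) lay in the highest 10%, against 6.37% of all promoters. MC/CM was called higher in the promoter than in the body at 0 of 31 members (background 0.255%), with 0 without adjustment, where 51 of 14124 genes passed, and 0 in the summed calls (background 2.76%). It was called lower at 16 of 31 (background 52.5%), a share near the background. Sense and antisense hemimethylation, with the methylated strand set by the direction of the gene, were called different at 0 of 29 members by an exact binomial test (background 0.0%). The rule called 0 of 11737 promoters, so it cannot set members apart from other promoters. Without adjustment 1 member, Asz1, had more sense calls in both replicates, as did 2 of 11737 promoters in all, and 0 were called in the summed calls (background 0.0%).

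Symmetric methylation was called lower in the promoter than in the body at 22 of 31 members tested by Fisher's exact test, against a background of 79.6% of all genes. It was called higher at 0 of 31 (background 2.08%), with 0 also without adjustment, where 313 of 14124 genes passed. In the summed calls it was called higher at 2 of 41 (background 6.58%), Tdrd9 with 71.5% against 63.9% and Tex15 with 67.8% against 55.5%. The 250 bases before the Tex15 TSS used here hold 0 CpG sites. The 9 members tested and not called lower were Asz1, Dnd1, Hormad2, Piwil1, Spo11, Sycp2, Tdrd1, Tex101 and Tex19.1. In the summed calls 30 of 41 members were called lower (background 76.9%), among them Dnd1, Hormad2, Spo11 and Sycp2. At Piwil1, MM was 49.7% and 55.9% in the promoter and 52.1% and 53.6% in the body. At Tdrd1 it was 65.4% and 65.9% against 65.3% and 69.5%. At Dnd1 both parts were low, with a body at 13.7% and 12.9%. By contrast, at Hsf2bp MM was 1.90% and 2.22% in the promoter and 59.5% and 64.8% in the body (adjusted p = 3.9e-172 and 5.3e-50, Fisher's exact test).

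Over all members, the bodies had median MM near that of other bodies, with more MC/CM and less HC/CH. Median MM was 56.6% and 61.9% over 39 member bodies, against 55.8% and 60.7% at 18290 others. Median HC/CH was 3.89% and 2.98% against 4.88% and 4.14%, with an interquartile range of 3.07% to 4.99% among members in replicate 1. The lower HC/CH was found in both replicates in genes with dense promoters, with 3.61% and 2.74% at 23 members against 5.30% and 4.56%. It was not found in both in the other classes, with 4.61% and 4.17% against 4.85% and 4.13% at 12 intermediate members and 4.38% and 3.23% against 3.44% and 2.82% at 4 sparse ones. Median MC/CM was 14.5% and 17.0% over all members against 12.7% and 14.1%. Ranked by the lower of the replicates, Rec8 had the highest body HC/CH, with 7.78% and 7.53%, followed by Msh5 with 6.55% and 6.12% and Syce2 with 5.58% and 5.52%. All 3 promoters had over 75% CC in both replicates. At the other end, the Dazl body had 1.62% and 0%, the latter of 107 calls.

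Motifs were searched in 300 bases, from 250 before to 50 after the TSS, on both strands. The E-box CACGTG was found in 12 of 42 members (28.6%) and in 7.77% of all protein-coding promoters, or in 37.5% of dense members and 10.8% of all dense promoters. The E2F motif GGCGGGAA was found in 5 members (11.9%) and in 2.99% of all. Both occurred in Ddx4, Hormad1 and Slc25a31 (7.14% of members, 0.237% of all), where the matches of the motifs lay apart from each other. In the stretch of Hormad1 printed above, the E-box CpG sites lie 55 and 18 bases before the TSS, with 4 of 5 and 7 of 7 calls CC in replicate 1. The E2F site lies 94 bases before it, with 2 of 5 calls CC in replicate 1 and 6 of 6 in replicate 2. At Slc25a31 the E-box site 75 bases before the TSS had 4 of 6 calls CC in replicate 1, and the E2F site 39 bases after it, outside the printed stretch, had 2 of 5 in replicate 2. Over all members, the 12 E-box CpG sites covered in replicate 1 had 70.9% CC in 79 calls. The other sites in the windows of all 12 members with an E-box had 58.5% in 549 calls. The E-box sites of Brdt, Ddx4, Stag3 and Sycp1 were not covered, so these shares do not rest on the same genes. Replicate 2 covered 0 E-box sites. The 8 members with an E-box among the 33 had a median CC of 45.8% and 47.3%, and the 25 without one 65.9% and 56.4%. Their CC ranges, 18.0% to 84.5% and 7.39% to 95.8% in replicate 1, overlap. A match of letters is a description and does not show binding.

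Another 40 germline genes were listed by name, with earlier results of these data known. Of these, 38 were matched and 32 had promoters measured in both replicates. Their median CC was 44.8% and 38.0% and their median MM 34.3% and 44.0%, against the members' 50.2% and 56.4% for CC and 27.4% and 30.9% for MM. MM was called lower in the promoter at 16 of 31 (background 79.6%) and higher at 1, Mei1 (background 2.08%). HC/CH was called higher at 1 of 31, Tex11 (background 0.609%), and lower at 0 (background 8.21%). In the highest 10% for HM/MH in both replicates were 7 of 32 (background 3.82%). For HC/CH it was 1 of 32 (background 4.15%) and for MC/CM 3 of 32 (background 5.42%). The members had 8, 4 and 0 of 33 for these 3 states. A list of 21 repressors of germline genes and DNA methylation enzymes, such as E2f6, Mga, Max and Dnmt1, was also set beside the members. Over the 17 measured in both replicates the median CC was 95.8% and 96.4%, and MM was called lower in the promoter at 17 of 17 (background 79.6%). HC/CH was called lower at 2 of 17 (background 8.21%). Atf7ip, a cofactor of the histone methyltransferase SETDB1, stood apart from the median with 43.5% and 34.8% CC and 38.8% and 37.6% MM, and was singled out after its values were seen.

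The promoter windows of 4 members also hold the TSS of another protein-coding gene. Hsf2bp shares its window with Rrp1b at a distance of 249 bp, Smc1b with Ribc2 at 114 bp, Tex14 with Rad51c at 542 bp, and Stag3 with Gpc2 at 521 bp and Gm43720 at 568 bp. All 4 had at least 69.9% CC in replicate 1 and 83.7% in replicate 2. A CpG site in these windows cannot be given to either gene, and the part of the second gene in the level was not tested.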

How the data were processed

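Per the labels and the study's methods, both libraries were made from E14 mESC DNA, and the authors trimmed the reads with Cutadapt 4.6, aligned both strands to mm10 with BSBolt, handled alignments with SAMtools and Picard 3.1.1, and called a state for each CpG site. The deposited tables hold 1 line per site and state, with the count of calls, and the authors' percent of the site's calls. The authors removed sites with fewer than 5 calls, blacklisted sites and sites with several calling errors in each replicate apart, and the deposited counts are not corrected with the synthetic duplexes, although the study used such correction for its global levels. Correction was an alternative here.

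Sites were placed at GENCODE vM21 genes (GRCm38.p6, principal transcript) by Python 3.11.15, pandas 2.3.3, NumPy 2.4.6 and SciPy 1.17.1. A level was calls of a state over all calls of a promoter or body with at least 5 covered sites. Promoter and body counts were compared with Fisher's exact test, and HC/CH with HM/MH and sense with antisense calls with exact binomial tests, each replicate apart, with Benjamini-Hochberg adjustment over all protein-coding genes, and the code was tested on simulated data. Depths were 10.5 and 6.36 calls per site. The replicates are 2 passages of 1 line, and intervals cover counting error only.

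Members and lists were chosen with earlier results of these data known. Values are printed for the 10 highest and 5 lowest members for promoter HC/CH, the 5 highest and 5 lowest for MM, the 3 highest for body HC/CH, and members needed to describe a role group. The limit of 60% CC, the highest 10% for HM/MH and summed calls were chosen after seeing the data. Alternatives were a minimum of 10 calls per site, 500 bp promoters, the gene record's TSS, shared sites, 1 site per 150 bp, at least 10 sites, means over sites, corrected levels and each replicate alone. Promoter sequences were read from the GRCm38.p6 reference genome.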

Additional observations from a re-analysis of the deposited data

How the results depend on the processing

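Of 22 HC/CH levels of named promoters, 14 moved by more than the replicates' SD with 500 bp promoters, 10 with sites deposited for both replicates and 6 with the TSS of the gene record. Shares of all genes or promoters under the same setting stand in brackets. Medians are those of the members alone. Each highest 10% was set anew among the promoters measured under that setting. No paired analysis was possible because there is only 1 condition. With promoters of 500 bp either side of the TSS, 6 of 24 members (25.0%) against 12.4% of all promoters had under 60% CC in both replicates, 3 of 17 dense members did (0.624%), and the median levels, as means of the replicates, were 67% CC, 4.06% MC/CM and 14.5% MM. With the TSS of the gene record, HC/CH was higher in the promoter at 1 of 33 (0.547%), MM at 1 (2.48%), the highest 10% for MC/CM held 1 of 34 (5.38%), and the medians were 24.5% MM and 4.88% HC/CH. With sites deposited for both replicates, MC/CM was lower at 10 of 27 (44.1%), the highest 10% for HC/CH held 2 of 29 (4.20%) and median CC was 47.2%. With at least 10 sites the highest 10% held 7 of 26 for HC/CH (5.02%) and 3 for MC/CM (6.37%), 11 had under 60% CC (10.3%), and the medians were 68.7% CC, 5.42% MC/CM and 19.08% MM. With 1 site per 150 bp MC/CM was lower at 6 of 25 (24.5%), and with means over sites the highest 10% for MC/CM held 1 of 33 (5.46%). Corrected medians were 5.31% MC/CM and 2.45% HM/MH. In the summed calls HC/CH was higher at 11 of 41 (5.71%) and lower at 5 (45.6%), and MM was higher at 2 (6.58%). MC/CM was lower at 26 (68.0%) and HC/CH exceeded HM/MH at 1 of 42 (2.36%). The highest 10% of the 1 summed set held 10 of 42 for HC/CH and 2 for MC/CM. About 10% of all promoters lie there by definition. The summed medians were 46.5% CC, 7.51% MC/CM and 5.27% HC/CH. Under a limit of 40% CC lay 11 of 33 (16.8%), with 3 of 20 dense (0.285%). Without replicate 1 (31 members tested against the body) or without replicate 2 (41 tested), HC/CH was higher in the promoter at 1 and 8 (1.44% and 4.70%) and lower at 0 and 4 (8.48% and 43.9%). MM was higher at 0 and 3 (3.11% and 5.98%) and lower at 22 and 30 (80.5% and 76.2%), and MC/CM was higher at 0 and 0 (0.892% and 2.54%) and lower at 16 and 27 (53.8% and 66.5%). HC/CH exceeded HM/MH at 0 of 30 and 1 of 42 (0% and 0.746%). The highest 10% of a single replicate held 9 for HC/CH and 3 for MC/CM, of 33 and 42. Here too about 10% of all promoters lie by definition, unlike the 4.15% and 5.42% of the rule for both replicates. Under 60% CC lay 18 and 24 of these (27.0% and 33.6%), with 7 of 20 and 9 of 24 dense (6.43% and 3.07%). Promoter medians ranged from 45.8% to 56.4% for CC, 5.88% to 6.82% for MC/CM, 29.7% to 30.9% for MM, 4.0% to 4.92% for HC/CH and 2.82% to 3.22% for HM/MH, and body medians from 2.98% to 3.93% for HC/CH and 56.7% to 61.9% for MM. The cause of these changes was not tested. A minimum of 10 calls per site left 0 member promoters testable against the body and 1 member promoter measured in both replicates. Only body medians were recomputed, with HC/CH levels of the named promoters that kept any site in both replicates. Of these levels, 3 moved by more than the replicates' SD and 2 did not.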
